A study of Mus musculus with 8 samples.

Results

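The ETS genes encode transcription factors that share a DNA-binding domain and read sites built around a GGAA core. Family members differ in what they are known for: Etv2 directs endothelial and blood progenitors in the embryo, Ehf, Elf3 and Elf5 are epithelial members, and Etv1, Etv4 and Etv5 form the PEA3 group that acts downstream of FGF and RAS-MAPK signaling. Ets1 and Ets2 are MAPK-responsive activators, and Etv6 is a repressor. PRC2, of which EED is a core subunit, is the complex that places the repressive H3K27me3 mark on chromatin.

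The 10 genes described here are Etv1, Etv2, Etv4, Etv5, Etv6, Ehf, Elf3, Elf5, Ets1 and Ets2, out of 36799 genes and other targets on the array. They were found through the RefSeq accessions of their probes, 15 in number. All 10 passed the filter on dim probes, which asks that 3 or more of the 4 arrays of either genotype show the sample well above background. Etv2 and Elf5 passed through the EED cKO arrays alone, with 4 of these and 2 control arrays above background. They were chosen with their values in EED cKO against control epidermis in view, so their differences between the genotypes are given as descriptions and without a test.

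RNA came from back skin epidermis of newborn C57BL/6 mice at postnatal day 0, 4 EED cKO and 4 control. EED cKO mice carry K14-Cre, which is active in keratinocytes and other cells of the epidermal lineage, and EED flox/flox alleles. The labels give the control genotype only as control. For RT-qPCR of such animals the study names Cre-negative siblings as controls, and whether this holds for the arrays is not stated. Each sample was hybridized against Universal Mouse Reference RNA, the same commercial RNA mix on every array, and values are log2 ratios of sample over reference. Fold changes are differences between the genotype means of these ratios.

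Eed was lower in EED cKO (log2 fold change -1.46, standard error, SE, 0.09, limma adjusted p = 2.14e-05) and its groups did not overlap. Where its probe lies relative to the deleted part is not given in the sources used here. None of the 8 keratinocyte markers (Krt5, Krt14, Krt1, Krt10, Trp63, Cdh1, Epcam, Dsg3) passed the test, 0 also without adjustment of the limma p at 0.05, and all 8 were above background on every array. Between 50.5% and 64.5% of probes were above background per array, and the number of arrays limits the precision. All 8 arrays lay on 1 slide with 1 scan time, and each genotype filled a row of its own, so slide row and genotype cannot be told apart. Y-linked RNA was high on control replicates 2 and 3 (mean log2 ratios 1.30 and 1.16) and between -1.91 and -1.61 on the other 6 arrays. Its part in the results was not tested. Values without these 2 arrays are given for Etv2, Ehf, Elf5, Ets2 and Etv5 and for some other results. In these tissue samples, fewer cells of a type and less RNA per cell cannot be told apart.

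Promoter sequence is shown for the 4 members that stood farthest above or below the controls and have an entry in the RefSeq promoter table. The table covers 7 of the 10 genes. Ehf, Ets1 and Etv4 are the other members. The sequences are the 250 bases before a start, from RefSeq on GRCm38.p6, and are printed 5′ to 3′ on the strand of the gene. Capitals mark each GGAA and its reverse complement TTCC, the core of ETS sites on either strand. Etv2 lies at chr7:30635853-30636102 on the minus strand, Elf5 at chr2:103411848-103412097 on the plus strand, Ets2 at chr16:95702157-95702406 on the plus strand and Etv5 at chr16:22439571-22439820 on the minus strand.
Etv2: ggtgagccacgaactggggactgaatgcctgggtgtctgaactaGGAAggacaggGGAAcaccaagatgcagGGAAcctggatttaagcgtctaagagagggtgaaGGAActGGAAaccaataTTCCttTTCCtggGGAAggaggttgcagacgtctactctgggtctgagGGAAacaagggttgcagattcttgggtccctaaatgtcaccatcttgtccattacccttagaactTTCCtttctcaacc
Elf5: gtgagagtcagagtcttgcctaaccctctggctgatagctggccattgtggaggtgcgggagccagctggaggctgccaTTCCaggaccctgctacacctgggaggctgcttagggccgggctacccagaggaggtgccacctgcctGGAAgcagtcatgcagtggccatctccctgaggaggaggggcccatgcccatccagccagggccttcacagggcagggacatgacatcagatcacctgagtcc
Ets2: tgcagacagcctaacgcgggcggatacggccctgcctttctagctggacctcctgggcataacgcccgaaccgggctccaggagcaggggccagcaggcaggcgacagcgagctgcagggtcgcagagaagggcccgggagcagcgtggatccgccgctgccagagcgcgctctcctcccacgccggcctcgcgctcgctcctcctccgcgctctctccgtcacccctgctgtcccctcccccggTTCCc
Etv5: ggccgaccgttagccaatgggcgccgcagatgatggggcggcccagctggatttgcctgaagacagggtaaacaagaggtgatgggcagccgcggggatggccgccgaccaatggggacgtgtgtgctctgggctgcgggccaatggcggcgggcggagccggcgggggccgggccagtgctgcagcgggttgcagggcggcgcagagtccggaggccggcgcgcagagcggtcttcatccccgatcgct

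The Etv2 window held 10 GGAA cores on both strands together. The median over 32851 promoters of the same length was 3, and 0.192% of them held at least 10. The Elf5 window shown held 2, the Ets2 window 1 and the Etv5 window 0, while 93.4% of all promoters held at least 1. Other windows of the members held 1 to 4, among them second starts of Etv5 with 4 and Elf5 with 1. The longer site CCGGAAGT, which contains the core, occurred on neither strand of the 10 windows of members and in 2.88% of all promoters. CpG dinucleotides, the sequence feature for which many Polycomb target promoters are known, gave another order. The Etv2 window held 3 and the Elf5 window 2, against a median of 6, whereas the Ets2 window held 25 and the Etv5 window 27. At least 25 CpG were present in 10.7% of promoters and at least 27 in 8.56%. Elf5 and Etv5 each have a second start in the table, with 8 and 18 CpG in its window. These counts describe letters only, and binding or chromatin marks at these windows were not analysed here.

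Etv2 stood highest above the controls among the members. The log2 ratios of its brighter probe in EED cKO replicates 1 to 4 were 2.74, 3.05, 3.03 and 2.79. In control replicates 1 to 4 they were -0.06, 0.17, 0.01 and 0.21. All 4 EED cKO arrays therefore lay far above all 4 controls. The log2 fold change was 2.82 (SE 0.09), or 7.08-fold, from means of 2.90 ± 0.16 and 0.08 ± 0.13 (SD, n = 4 each). Etv2 ranked 12th highest by fold change among 14946 tested genes with a symbol. Without control replicates 2 and 3 the log2 fold change was 2.83.

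In controls the Etv2 signal was at the limit of the arrays. The probe was well above background on 4 of 4 EED cKO arrays but only on control replicates 2 and 4. Its normalized sample signal was 421, 438, 397 and 389 intensity units in EED cKO and 61.1, 68.5, 63.8 and 68.0 in controls. These units, here and below, include an offset of 50 that the background correction added before normalization. The offset draws ratios of dim spots toward 0. The dimmest spots well above background on the 8 arrays were at 57.0 to 65.2 units, so the control values sat at the edge of detection. A second, dimmer Etv2 probe showed the same separation. Its log2 ratios were 1.35, 1.41, 1.42 and 1.17 in EED cKO and 0.15, -0.05, 0.18 and -0.14 in controls. Every EED cKO array and no control array showed it well above background, and its EED cKO signal was at least 2.34-fold higher than the control level. For this bound each control array contributed its dimmest spot above background, or the signal of the Etv2 probe where that was brighter. Since the second probe gives only a bound and the first was near background on controls, the sizes of their differences cannot be set against each other.

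**Figure D1:**
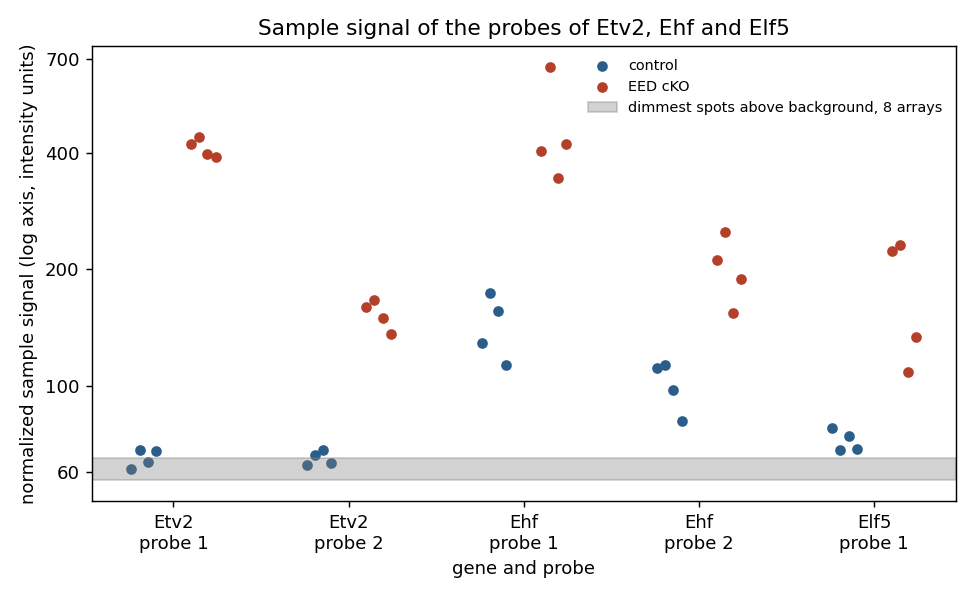
Normalized sample signal (log axis, intensity units) of each probe of Etv2, Ehf and Elf5 on the 4 control and 4 EED cKO arrays, 1 point per array. Signals and band include the offset of 50 from the background correction. The grey band spans the dimmest spots well above background on the 8 arrays, 57.0 to 65.2 units, and the control points of Etv2 lie within or just above it.

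The epithelial members Ehf and Elf5 also lay higher in EED cKO. Ehf, known for its part in epithelial differentiation, had log2 ratios of 2.32, 3.15, 2.41 and 2.49 in EED cKO and 0.82, 1.24, 1.14 and 0.68 in controls. The groups did not overlap, and EED cKO replicate 2 was the highest. The log2 fold change was 1.62 (SE 0.18), or 3.08-fold, and Ehf ranked 62nd highest. Without control replicates 2 and 3 the log2 fold change of Ehf was 1.84 (SE 0.19). Its second probe gave 1.72, 1.89, 1.20 and 1.42 in EED cKO and 0.71, 0.67, 0.54 and 0.17 in controls, again without overlap, with a log2 fold change of 1.03 (SE 0.17). Both probes were above background on all 8 arrays. In contrast to Etv2, Ehf was thus measured in control epidermis too.

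Elf5, known from mammary and trophoblast lineages, had log2 ratios of 1.95, 2.13, 1.00 and 1.18 in EED cKO and 0.45, 0.23, 0.28 and 0.13 in controls. The groups did not overlap, but the EED cKO arrays differed among themselves more than those of any other member, with replicates 1 and 2 well above 3 and 4 (SD 0.56, n = 4). The log2 fold change was 1.29 (SE 0.23), or 2.45-fold, and Elf5 ranked 111th highest. Without control replicates 2 and 3 the log2 fold change of Elf5 was 1.28 (SE 0.31). Among controls its probe was detected above background on replicates 1 and 2 only, while it was so on every EED cKO array.

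Elf3, a further epithelial member with a role in terminal differentiation, did not follow them. Its log2 ratios were -0.62, -0.35, -0.57 and -0.40 in EED cKO and -0.50, -0.78, -0.59 and -0.78 in controls. The groups overlapped, and the log2 fold change was 0.18 (SE 0.10).

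**Figure D2:**
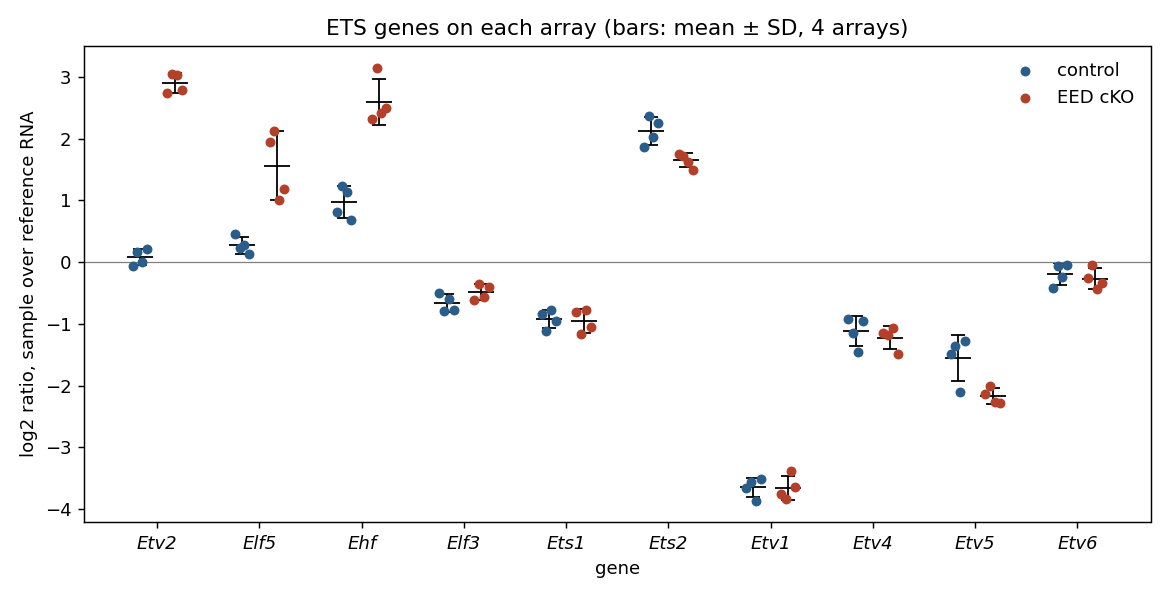
Log2 ratio of sample over reference RNA (vertical axis) for the brighter probe of each of the 10 ETS genes (horizontal axis), 1 point per array, with the mean ± SD of 4 control and 4 EED cKO arrays. Etv2, Elf5 and Ehf have all EED cKO points above all control points, Ets2 has them all below, and the other 6 genes overlap.

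In the PEA3 group Etv5 lay lower in EED cKO, while Etv4 and Etv1 lay near the controls. Etv5 had log2 ratios of -2.13, -2.00, -2.27 and -2.28 in EED cKO and -1.50, -1.35, -2.10 and -1.27 in controls. Control replicate 3 fell among the EED cKO arrays, so the groups overlapped, while the other 3 controls lay above them. The log2 fold change was -0.62 (SE 0.14), which is 1.53-fold lower in EED cKO, and it was -0.79 without control replicates 2 and 3. Etv4 had log2 ratios of -1.15, -1.19, -1.06 and -1.49 in EED cKO and -0.92, -1.14, -1.46 and -0.95 in controls. These groups overlapped, with a log2 fold change of -0.10 (SE 0.14), and the second probe gave -0.11 (SE 0.10). Etv1 had log2 ratios of -3.76, -3.83, -3.39 and -3.64 in EED cKO and -3.66, -3.56, -3.86 and -3.50 in controls, and a log2 fold change of -0.01 (SE 0.11). Its level relative to the reference was low in both genotypes, and a second Etv1 probe was above background on no array.

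Ets2 was the member whose EED cKO arrays all lay below the controls. Its log2 ratios were 1.75, 1.72, 1.63 and 1.50 in EED cKO and 1.87, 2.37, 2.03 and 2.25 in controls. The nearest arrays of the 2 groups, EED cKO replicate 1 and control replicate 1, were close. The log2 fold change was -0.48 (SE 0.11), or 1.40-fold lower in EED cKO. Without control replicates 2 and 3 the log2 fold change of Ets2 was -0.41 (SE 0.13). Ets1, its close relative, had log2 ratios of -0.80, -1.17, -0.78 and -1.05 in EED cKO and -0.84, -1.12, -0.78 and -0.95 in controls. The groups overlapped almost fully, with log2 fold changes of -0.03 (SE 0.07) and, from the second probe, -0.06 (SE 0.09). The repressor Etv6 had log2 ratios of -0.26, -0.04, -0.44 and -0.34 in EED cKO and -0.42, -0.07, -0.23 and -0.04 in controls, overlapping groups, and a log2 fold change of -0.08 (SE 0.09).

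Over all 23139 genes and targets tested, 21.7% had a limma adjusted p below 0.05, 11.8% higher and 9.95% lower in EED cKO. With an additional 2-fold limit the share was 1.2%, 1.1% higher and 0.0994% lower. Among tested genes with a symbol, like the members, 25.9% met the first rule (12.5% higher, 13.4% lower) and 1.6% the second. Of the 10 ETS genes, 5 met the first rule (Etv2, Ehf and Elf5 higher, Ets2 and Etv5 lower) and 3 the second (Etv2, Ehf and Elf5). Groups did not overlap for 17.2% of all tested (9.65% with EED cKO above, 7.52% below) and 20.2% of those with a symbol, and for 4 of the 10 members (3 above, 1 below). Because the members were picked from this comparison, and Etv2 and Elf5 passed the filter only through EED cKO, nothing is read from these counts. The median log2 fold change was -0.02 over the members and 0.02 over all tested. The reference channel, which held the same RNA on all arrays, differed between the genotypes by -0.17 (Etv2) to 0.04 (Ehf) on the log2 scale over the members, against a median absolute difference of 0.039 over all tested.

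The genes of the family outside the 10 were tested on the same arrays. As the members were picked with this comparison known, these others are what that choice left. Of 17, 16 were on the array and 14 passed the filter. Erg, an endothelial member, and Spic, a macrophage member, were above background on no array. None of the 14 was higher in EED cKO by limma and 4 were lower, against 11.8% and 9.95% of all tested. All genes of this and the later lists have a symbol, and among tested genes with a symbol the shares were 12.5% and 13.4%. At an unadjusted p below 0.05, 0 of the 14 were higher and 6 lower by limma. For such unadjusted counts, here and below, the share of all tested is not given, so nothing is read from them. The median log2 fold change of the 14 was -0.09. Erf, a repressor that ERK inactivates, had log2 ratios of 0.81, 0.91, 0.87 and 0.61 in EED cKO and 1.35, 1.68, 1.48 and 1.43 in controls. The groups did not overlap, and Erf fell by 0.68 on the log2 scale (SE 0.10, adjusted p = 0.00185 by limma). Etv3, also a repressor, had log2 ratios of 1.13, 1.43, 1.05 and 1.05 in EED cKO and 1.73, 2.00, 1.51 and 1.66 in controls. It fell by 0.56 (SE 0.11, adjusted p = 0.00746 by limma), without overlap. Gabpa, the DNA-binding subunit of GABP and a regulator of nuclear genes for mitochondrial proteins, fell by 0.36 (SE 0.07, adjusted p = 0.00791 by limma), with log2 ratios of -0.41, -0.33, -0.32 and -0.49 in EED cKO and -0.03, -0.01, -0.11 and 0.04 in controls. Elf2 fell by 0.33 (SE 0.08, adjusted p = 0.0241 by limma), with overlapping groups. The call of Elf2 was kept in 13 of 21 alternatives and was lost without control replicates 2 and 3, whereas Erf and Gabpa kept theirs in 21 of 21.

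The 10 other tested genes of the family did not pass. Their log2 fold changes were -0.24 for Elf1, -0.23 for Spdef, a factor of secretory epithelia, -0.11 for Elk1, -0.07 for Fli1, -0.06 for Spi1 and -0.01 for Elk4. The Elf1 groups did not overlap, and Elf1 passed with the replicate number as a block (limma adjusted p = 0.0472), but its second probe gave -0.10. The values were 0.11 for Elk3, 0.07 for Fev, 0.03 for Elf4 and 0.02 for Spib. The probes of Elk4 and Elk3 differed among themselves. Other Elk4 probes gave -0.29 (SE 0.07), 0.12 (SE 0.07) and -0.02 (SE 0.09). Other Elk3 probes gave 0.17 (SE 0.08) and -0.12 (SE 0.07), so neither gene has a single direction here. Elk1, Elk3 and Elk4 are the ternary complex factors that act with SRF, and Spi1 and Spib are known from blood cells. Spi1 and Fli1 were close to the limit of detection, with 5 of 8 arrays above background each.

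**Figure D3:**
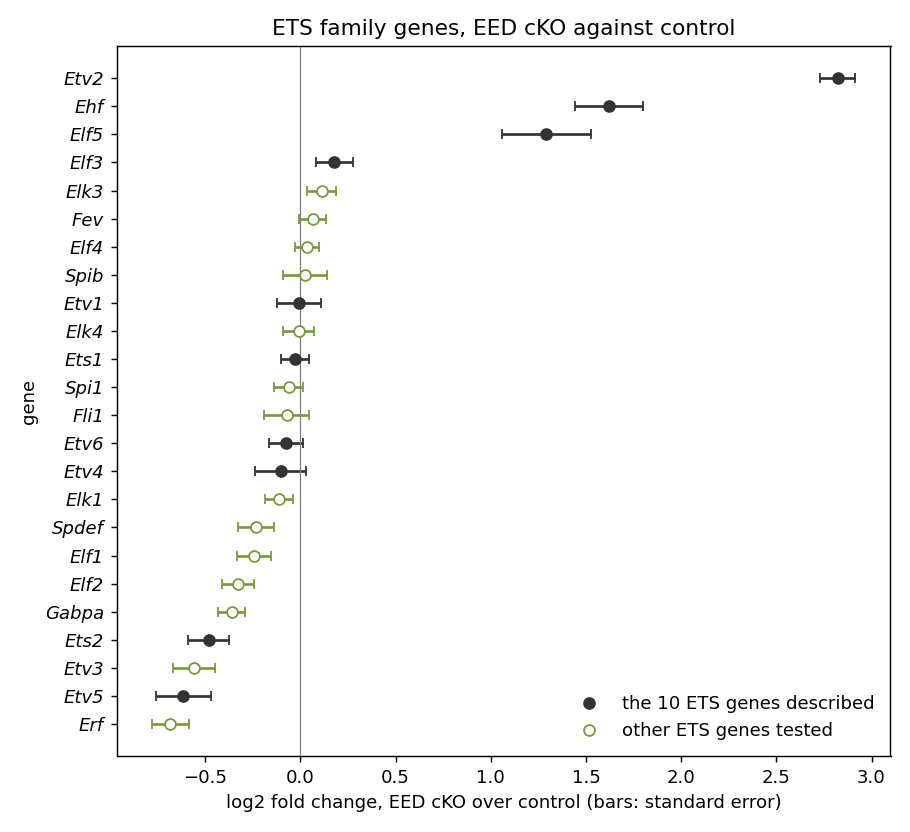
Log2 fold change of EED cKO over control (horizontal axis, bars are the standard error) for 24 tested ETS genes, ordered by value. Etv2 at 2.82, Ehf at 1.62 and Elf5 at 1.29 stand apart from the other 21 genes, which lie between -0.68 (Erf) and 0.18 (Elf3).

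Etv2 has endothelial genes among its known targets, and 29 of them were listed. Of these, 18 passed the filter, 5 were higher in EED cKO and 0 lower, against 11.8% and 9.95% of all tested. The 18 had a median log2 fold change of 0.25. By limma without adjustment 0 were lower and 9 higher at p below 0.05, and none of the 18 reached 2-fold. The unadjusted count has no share of all tested beside it and is a description only. Pecam1, an adhesion molecule of endothelial cells, platelets and leukocytes, had log2 ratios of 0.58, 1.41, 0.92 and 1.65 in EED cKO and 0.04, 0.46, 0.30 and 0.18 in controls. The groups did not overlap, and the log2 fold change was 0.89 (SE 0.15, adjusted p = 0.00384 by limma). Kdr, the main VEGF receptor, had log2 ratios of 1.40, 0.91, 1.46 and 1.18 in EED cKO and 0.94, 0.35, 0.97 and 0.22 in controls. The groups overlapped, but within each dye both EED cKO arrays lay above both controls, and the log2 fold change was 0.62 (SE 0.09, adjusted p = 0.00218 by limma). The call was lost without the dye term. A second Kdr probe was above background on 1 array of each genotype only. The endothelial nitric oxide synthase gene Nos3 was higher by 0.48 (limma adjusted p = 0.00585), Clec14a by 0.37 (0.0205) and Icam2 by 0.27 (0.0449). A second Nos3 probe, above background on all 8 arrays, gave 0.19 (SE 0.07), and a second Clec14a probe was above background on no array. Clec14a kept its call in 13 and Icam2 in 8 of 21 alternatives, and the count of 5 was 3 without EED cKO replicate 1 or without control replicate 2.

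The defining endothelial genes Cdh5, Tek and Tie1 were above background on no array, as were Esam and Dll4. Of the 8 endothelial markers (Pecam1, Cdh5, Kdr, Tek, Emcn, Tie1, Cldn5, Plvap), 4 were tested and 2 were higher, Pecam1 and Kdr, which stand in both lists. The summed sample signal of the 8 was 4823 to 6282 intensity units in EED cKO and 2954 to 4386 in controls. Summed signals, here and below, include the offset of the background correction for each probe. Of 10 leukocyte markers, 9 were tested and 2 were higher, Cd3e and Cd74, against 11.8% of all tested. The list median was 0.17 on the log2 scale, with summed signals of 5806 to 8157 in EED cKO and 4154 to 8589 in controls. Of 8 Merkel cell markers, 7 were higher, against the same 11.8%, at a list median of 0.67 on the log2 scale. In the other lists of cell type markers, 1 of 2 adipocyte markers tested was higher (Fabp4, 1.17, limma adjusted p = 0.0345), 1 of 6 fibroblast markers was higher (Lum, 0.50, limma adjusted p = 0.0121) and 1 of 4 Schwann cell and neuron markers was lower (Sox10, -0.50, limma adjusted p = 0.0489). The summed signals of these 3 lists were 310 to 472, 27386 to 28867 and 2702 to 4062 units in EED cKO and 204 to 333, 26744 to 37578 and 3394 to 4419 in controls. No marker of melanocytes, skeletal muscle or erythroid cells passed in limma. At an unadjusted p below 0.05, 2 melanocyte markers were higher and 1 lower, and 1 muscle and 1 erythroid marker were higher. With the replicate number as a block, the melanocyte gene Kit (-0.51, limma adjusted p = 0.0361) and the Schwann cell gene Mbp (-0.23, limma adjusted p = 0.0497) also passed. The part of any of these cell types in the levels of the ETS and endothelial genes was not tested.

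The PEA3 genes Etv4 and Etv5 belong to the transcriptional response to FGF and RAS-MAPK signaling, so genes of that response and its feedback were set beside them. Of 17, 14 were tested, 3 were higher and 4 lower, against 11.8% and 9.95% of all tested, and the median log2 fold change was -0.003. The feedback inhibitors Spry1 and Spred2 fell by 0.56 and 0.53 (limma adjusted p = 0.00491 and 0.00485), each without overlap of the groups. For Spry1 the log2 ratios were 0.84, 1.45, 1.08 and 1.08 in EED cKO and 1.52, 1.92, 1.51 and 1.72 in controls. Myc fell by 0.47 (limma adjusted p = 0.0091) and lost its call without control replicates 2 and 3. The immediate early gene Egr1 was higher by 0.88 (SE 0.23, adjusted p = 0.0228 by limma), and Ier3 by 0.51 (limma adjusted p = 0.0111). Fosl1, an AP-1 subunit, was higher by 0.38 (limma adjusted p = 0.0265). The phosphatase gene Dusp6, a widely used readout of ERK activity, had a log2 fold change of -0.10 (SE 0.12) and did not pass. The list thus moved in both directions, with Phlda1 as the remaining call at -0.37 (limma adjusted p = 0.0462, and 0.0586 with the replicate number as a block). Of 21 alternatives, Egr1 kept its call in 13, Fosl1 in 9 and Phlda1 in 5. The count of 7 was 4 without EED cKO replicate 3, without EED cKO replicate 4, and without control replicates 2 and 3 together.

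Genes of the cornified envelope, the protein shell of terminally differentiated keratinocytes, were set beside Ehf and Elf3. Of 25, 19 were tested, 10 were higher in EED cKO by limma and 0 lower, against 11.8% and 9.95% of all tested. With the 2-fold limit, 5 of the 19 were called, against 1.2% of all tested and 1.6% of those with a symbol. At an unadjusted p below 0.05, 1 was lower by limma (Tgm5, log2 fold change -0.57), and Tgm5 passed with the replicate number as a block (limma adjusted p = 0.0324). The median log2 fold change was 0.46. The small proline-rich protein gene Sprr2g had mean log2 ratios of 1.77 ± 0.73 in EED cKO and -0.56 ± 0.31 in controls (SD, n = 4 each). Its log2 fold change was 2.32 (SE 0.25, adjusted p = 0.000572 by limma). Crnn had log2 ratios of 1.94, 1.84, 1.75 and 1.34 in EED cKO and 0.41, 0.12, 0.63 and 0.02 in controls, with a log2 fold change of 1.42 (SE 0.12, adjusted p = 0.000118 by limma). Both separated fully between the genotypes. Sprr1a, Sprr1b and Rptn were higher by 1.56, 1.50 and 1.48 (limma adjusted p = 0.00228, 0.00628 and 0.00864), and Sprr2e by 0.81 (limma adjusted p = 0.0458), a call kept in 8 of 21 alternatives. Several Sprr genes are near-identical in sequence, so their probes may not tell them apart. In contrast, the abundant envelope genes Lor and Ivl had log2 fold changes of 0.10 and 0.34 and did not pass.

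**Figure D4:**
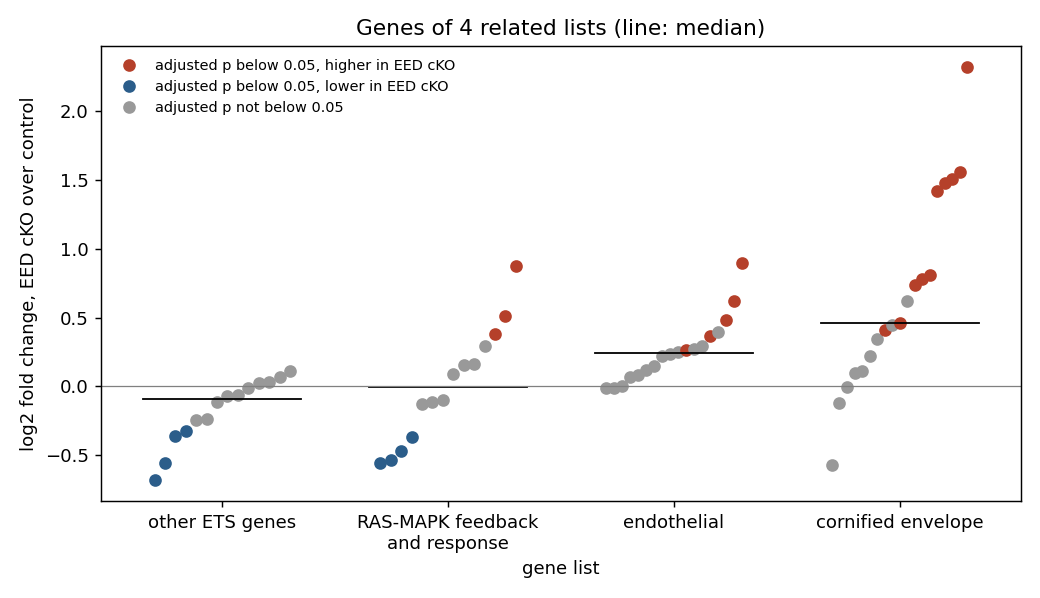
Log2 fold change of EED cKO over control (vertical axis) for the tested genes of 4 lists, 1 point per gene, with a line at the list median. The medians are -0.09 for other ETS genes, -0.003 for RAS-MAPK feedback and response genes, 0.25 for endothelial genes and 0.46 for cornified envelope genes, and no endothelial or cornified envelope gene passed the test downward in the fit shown.

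The profile of Etv2 over the 8 arrays was most like those of Krt6a, Krt7, Wfdc12, Serpinb3d and Nmu. Likeness was the root mean square difference of log2 ratios after subtracting the control mean of each gene, and it was 0.223, 0.232, 0.284, 0.304 and 0.308 in that order. Krt6a and Krt7 encode keratins, Krt6a a keratin of stressed and hair-associated epidermis and Krt7 one of simple epithelia. Because likeness was measured on the same arrays and the genotype difference dominates it, these are genes with a similar step between the groups, with log2 fold changes of 2.74, 3.00, 2.70, 3.01 and 3.18.

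The genes beside Etv2 on chromosome 7 did not share its step. Its 2 nearest measured neighbours on one side were Upk1a, with a log2 fold change of -0.07, and Cox6b1, with 0.45 (SE 0.08, adjusted p = 0.0067 by limma). On the other side Rbm42 had -0.06 and Haus5 0.16, and neither passed. Cox6b1, which encodes a subunit of cytochrome c oxidase, was thus the only one of the 4 that passed, with overlapping groups.

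Ehf and Elf5 are neighbours on chromosome 2, and the genes around them were looked at after their values were seen. A930006I01Rik, which lies between them, was above background on no array. Apip on one side was higher by 0.52 (SE 0.16, adjusted p = 0.0472 by limma), with overlapping groups. Pdhx beyond it had 0.07, and on the other side Cat had -0.16 and Abtb2 0.13, none of which passed.

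The direction of the 5 members farthest from 0 was the same under each processing choice tried, and the size was not. Etv2 ranged from 2.06, with the median over its probes, to 4.83, with the log ratios of the Feature Extraction software. Elf5 ranged from 0.99, with median centring, to 2.57, with the software ratios. Ehf stayed between 1.33 and 1.85, Etv5 between -0.82 and -0.62 and Ets2 between -0.67 and -0.46. Without EED cKO replicate 4, Etv5 was at -0.52 and Ets2 at -0.39. By its construction, the offset of the background correction used here draws the ratios of dim spots toward 0.

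**Figure D5:**
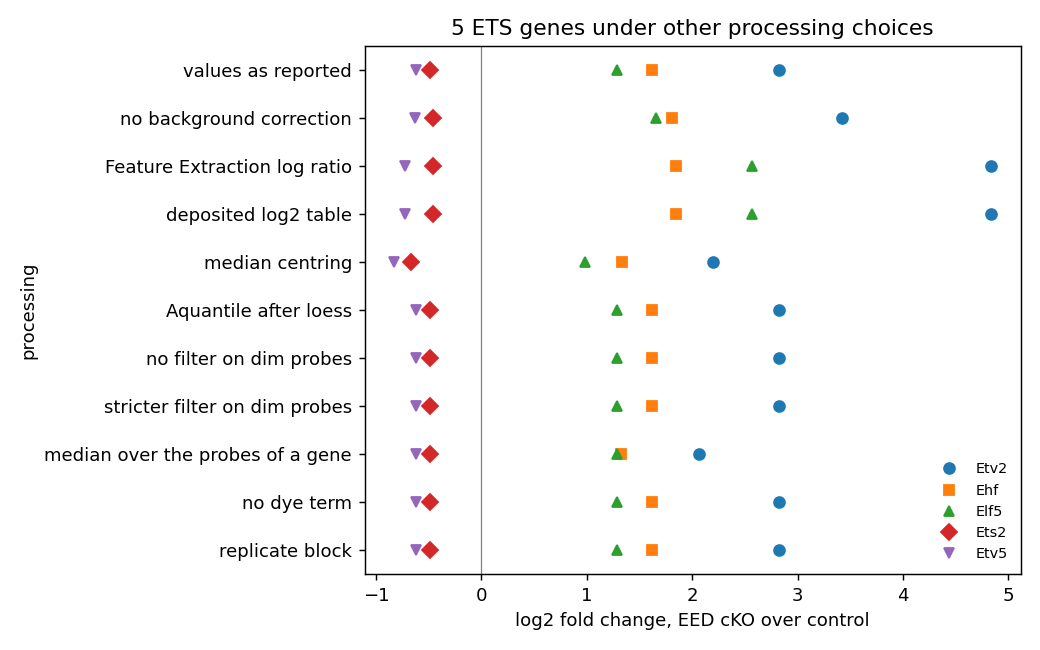
Log2 fold change of EED cKO over control (horizontal axis) for 5 ETS genes under the processing used and 10 other choices (vertical axis). Etv2, Ehf and Elf5 stay above 0 and Ets2 and Etv5 below 0 in every line, with the widest range, 2.06 to 4.83, for Etv2. Aquantile after loess, either other filter on dim probes, no dye term and the replicate block leave these values unchanged by construction. The deposited values repeat the software log ratios. The agreement of these lines therefore adds nothing.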

How the data were processed

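The authors hybridized amplified epidermal RNA of 4 EED cKO and 4 control mice with reference RNA, dyes swapped on replicates 2 and 4 of each genotype, and scanned the arrays. They deposited the Agilent Feature Extraction 12.0.1.1 output of each array, with spot and background intensity per channel (not normalized), flags and a log10 ratio of the 2 dyes. The log2 ratios of a series table, deposited as well, lay within 1e-04 of the software ratio turned to sample over reference for 100% of probes with 1 spot and a ratio other than 0. Its columns were not centred, and their medians were 0.03 to 0.14.

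Here the median spot intensity, used in place of the planned mean, was background-corrected by normexp (offset 50) and normalized by loess, with control spots at weight 0 and outlier flags left out. Swapped arrays were turned, and spots of a probe averaged. RefSeq accessions (GRCm38.p6) matched 28026 of 29796 probes named by one. The header of the arrays names an older mouse build, and coordinates are those of the promoter table alone. A gene was represented by its brightest probe. The comparison of genotypes used limma 3.58.1 under R 4.3.3 (lmFit and eBayes, with terms for genotype and dye), with Benjamini-Hochberg adjustment over 23139 genes and targets. Of these, 8193 had no symbol, and 19 missing values, none in a member, were dropped by the fit. On simulated arrays with 200 of 23139 genes made 3-fold different, 200 and 200 were recovered in 2 simulations, with 16 and 12 false calls. Differences smaller than 3-fold were not simulated, so these counts do not cover calls of smaller size.

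The members and lists were chosen with earlier results of these data known. The text names all members, all tested ETS genes, up to 6 called genes per list by size, Pecam1, Cdh5 and Kdr, Eed, the nearest genes of Etv2 and the 5 most like it. Further genes named from the lists and markers, and the neighbours of Ehf and Elf5, were chosen after their values were seen. Deviations of same-numbered samples from the group means correlated at 0.49, 0.68, 0.33 and 0.36, which meets the rule set for paired numbers. Same-numbered samples also share a dye, and the dye was not taken out of these deviations. The correlations therefore cannot tell pairing from a shared dye. The fit reported has no replicate block, so its errors and p-values are unpaired, and the block was run as an alternative. The labels call the samples biological replicates.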

Additional observations from a re-analysis of the deposited data

Results flagged for a closer look

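Elk4, a ternary complex factor, had a log2 ratio of 0.36 on control replicate 1, apart from the other 3 controls, which lay between 0.09 and 0.13. The gap to the nearest control was 0.839 of the range of the group, past the critical value of Dixon's test. Of 52 groups looked at, this was 1, and chance alone flags about 1 in 20.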

How the results depend on the processing

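The Etv2 log2 fold change of 2.82 was 3.42 without background correction, 4.83 with the software log ratio and likewise with the deposited values, 2.20 with median centring and 2.06 with the median over its probes. It was 2.75 to 2.89 with 1 array left out. The 5 calls among the members became 2 with the methods' t-test after Benjamini-Hochberg and 3 at its own thresholds, and 4 to 5 with 1 array left out. These thresholds are an unadjusted p below 0.05 with at least 2-fold, so their counts compare with the calls at 2-fold in the fit reported. At 2-fold that fit called 3 members, 5 cornified envelope genes and 278 of all genes. It called 0 other ETS, 0 RAS-MAPK and 0 endothelial genes at 2-fold. The 4 calls among other ETS genes became 2 and 0 with these t-tests and 3 to 5 with 1 array left out. With median centring, no dye term, the adjusted t-test and the t-test at its own thresholds, in that order, the 7 RAS-MAPK calls became 3, 4, 0 and 0, the 5 endothelial calls 3, 3, 0 and 0, the 10 cornified envelope calls 5, 6, 3 and 5, and the 5030 calls over all genes 2554, 2357, 908 and 275. With 1 array left out they were 4 to 6, 3 to 6, 7 to 11 and 2724 to 5051. The RAS-MAPK count was 4 without EED cKO replicate 3 or 4, the endothelial count 3 without EED cKO replicate 1 or control replicate 2, and the count over all genes 3340 and 2951 without EED cKO replicates 3 and 4 and 2724 without control replicate 2. At 2-fold, 699 and 698 genes were called from the software log ratio and from the deposited values, in place of 278, and 256 to 318 with 1 array left out. Without control replicates 2 and 3 together, an alternative chosen after seeing the data, 4 RAS-MAPK genes and 2593 of all genes were called, 4 members, 3 other ETS genes, 4 endothelial and 13 cornified envelope genes. Apart from the 2-fold limit in the t-test's own thresholds, the cause of these shifts was not tested.

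The replicate number as a block in place of the dye term left the Etv2 log2 fold change at 2.82. It gave 5 calls among the members, 5 other ETS genes, 6 RAS-MAPK genes, 5 endothelial genes, 11 cornified envelope genes and 5982 of all genes, 279 of them at 2-fold. None of these counts moved by over 1.5 times. Among the genes of the 4 related lists, the block changed the call of Elf1, Phlda1 and Tgm5.

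Calls over all genes were 54.2% higher in EED cKO (2727 higher, 2303 lower), but 39.7% with median centring (1014 higher, 1540 lower). Among genes that passed in the fit reported, no log2 fold change of a member turned its sign. Etv1 (-0.01) and Ets1 (-0.03), both near 0, did turn, up to 0.07 without EED cKO replicate 2 and up to 0.02 without control replicate 4. The methods' t-test without adjustment or fold limit called 0 other ETS genes higher and 5 lower, 7 endothelial genes higher and 0 lower, and 7 cornified envelope genes higher and 0 lower. No share of all tested is given for these counts either, and nothing is read from them. Etv2 and Elf5 in controls were near the background, so the size of their difference is less certain than its direction. Erf and Gabpa passed in 21 of 21 alternatives with an adjusted p, Etv3 in 20 and Elf2 in 13.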
